A study of Homo sapiens with 44 samples.

Results

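The comparison sets the 5 wells of H1 cells sampled at day 5 of differentiation, after IWP2 was added at day 3, against the 3 wells sampled at day 3, before it. These are 8 of the 44 RNA-seq libraries in the series, chosen by their labelled time point. H1 is an established human embryonic stem cell line. All 8 wells were coated with the laminins LN-521 and LN-221 and held cells in RPMI medium with a supplement lacking insulin, which the sample labels call B27 and the series text names differently. In all of them CHIR99021 had been given at day 0. The labels list CHIR99021 for day 3 wells and IWP2 in its place for day 5 wells, without an exact time at which CHIR99021 exposure ended. There is no day 5 well without IWP2, so IWP2, the end of CHIR99021 exposure and 2 more days of culture cannot be told apart. The labels call the wells biological replicates of 1 line. Nothing states that they came from separate cultures, so the spread between wells may be technical. The p-values of single genes rest on that spread as estimated together over all groups of the series, not on these 8 wells alone.

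CHIR99021 inhibits GSK3, the kinase that marks β-catenin for destruction, and so switches on the canonical Wnt response inside the cell without a Wnt ligand. β-catenin then binds TCF/LEF factors on DNA and raises a set of feedback genes. IWP2 inhibits Porcupine, the enzyme that attaches the lipid Wnt proteins need for secretion, and acts on ligand made by the cells themselves. In the embryo, Wnt and Nodal signals induce the primitive streak, from which mesoderm and endoderm arise. Cardiac protocols therefore raise Wnt signalling first and lower it afterwards.

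Between day 3 and day 5 the wells lost streak and Wnt feedback transcripts and gained those of heart progenitors, contractile proteins and liver-type secreted proteins. Of 22955 genes tested, 2317 (10.1%) were called, meaning an adjusted p under 0.05 and a change of at least 2-fold. Of these, 1321 (5.75% of genes tested) were higher at day 5 and 996 (4.34%) were lower. A change of at least 8-fold was reached by 593 called genes, 346 of them higher. The median log2 change over all genes tested was -0.02. Levels are given as CPM, a gene's counts relative to the size of its library, scaled between libraries by the TMM method. The split between higher and lower calls depended on the unit: 57.0% of calls were higher on counts, and 28.4% with limma on log2(TPM + 1) of the deposited TPM values, where the median moved by -0.26. Calls said below to be lost on TPM refer to that fit. With TPM rescaled so that protein-coding genes had the same sum in each library, an alternative added after seeing the data, 62.8% were higher.

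**Figure D1:**
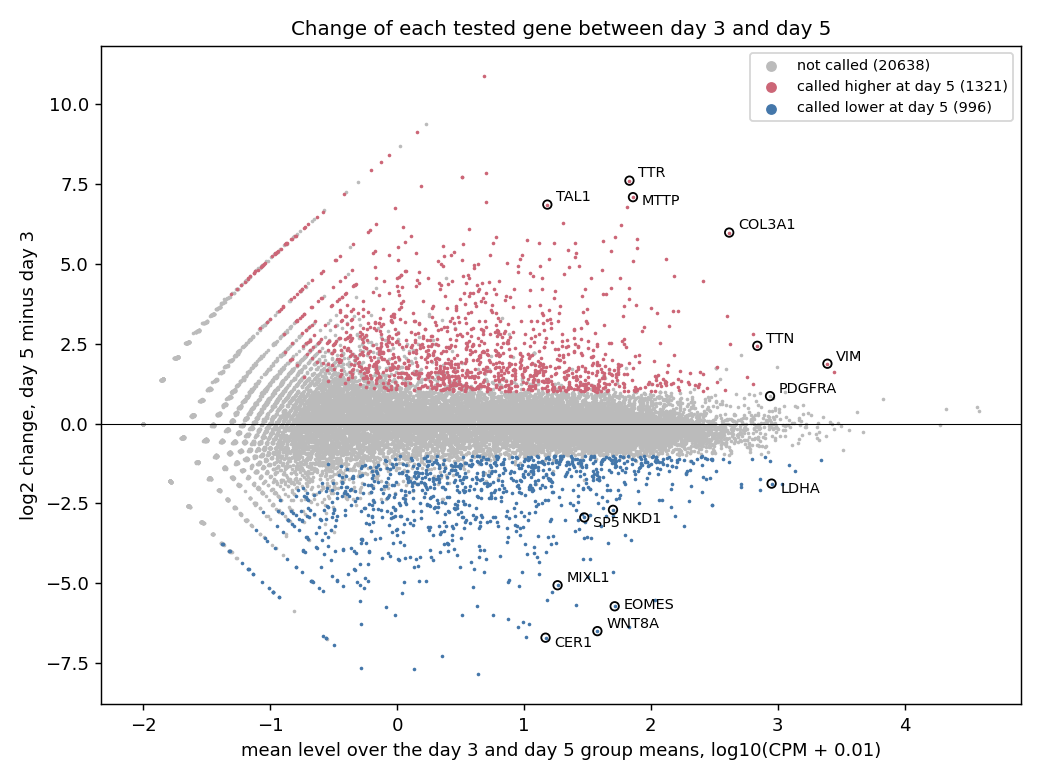
Change of each of the 22955 genes tested (vertical axis: log2 change, day 5 minus day 3) against its mean level (horizontal axis: log10 of CPM plus 0.01), with 1321 genes called higher in red and 996 called lower in blue. Of the genes labelled, TTR and MTTP rose furthest and CER1 and WNT8A fell furthest; PDGFRA was not called.

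The 8 libraries held 21139494 to 25787305 counts each, and RNA integrity scores were 9.6 to 10 at day 3 and 8.4 to 10 at day 5. The first principal component carried 69.9% of the variance of these 8 libraries and separated the days. Biological variation within a group, as edgeR's coefficient, was 14.1% at day 3 and 21.1% at day 5. Protein-coding genes took 88.4 ± 0.846% of counts at day 3 (SD, n = 3) and 83.1 ± 3.54% at day 5 (SD, n = 5). That difference of -5.25 percentage points had an exact two-sided permutation p of 0.0714, also 0.0714 after adjustment over the 2 shares tested. Mitochondrially encoded genes took 0.397 ± 0.035% and 0.278 ± 0.0531% (difference -0.119 points, exact permutation p 0.0357, the smallest that 56 splits allow, and 0.0714 adjusted). The part of RNA quality and of these shares in the gene results was not tested. Among day 3 wells, well 1 lay nearest to day 5 for 46.7% of the genes called higher and 55.1% of those called lower.

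SP5, CER1, PDGFRA and TTR mark the Wnt response, the streak and its endoderm, cardiac mesoderm, and endoderm with its liver derivatives. SP5 and CER1 fell, TTR rose, and PDGFRA was high on both days without passing the test. SP5 encodes a transcription factor induced directly by β-catenin and stood at 49.1, 57.2 and 52.4 CPM in the day 3 wells and 7.82, 7.58, 5.82, 4.83 and 8.29 CPM in the day 5 wells (log2 change -2.94, SE 0.38, adjusted p 3.31e-07). CER1, a secreted antagonist of Nodal, BMP and Wnt, stood at 21.9, 25.6 and 40.4 CPM in the day 3 wells and 0.155, 0.240, 0.471, 0.261 and 0.260 CPM in the day 5 wells (log2 change -6.71, SE 0.79, adjusted p 4.68e-08). Both genes had every day 5 well below every day 3 well. TTR, which carries thyroid hormone and retinol-binding protein in blood, stood at 0.636, 1.01 and 0.415 CPM in the day 3 wells and 121, 112, 172, 91.9 and 177 CPM in the day 5 wells (log2 change 7.61, SE 1.10, adjusted p 2.7e-06). Every day 5 well was far above every day 3 well. PDGFRA, the PDGF receptor of early mesoderm, stood at 738, 602 and 512 CPM in the day 3 wells and 1391, 1073, 689.6, 1374 and 1074 CPM in the day 5 wells (log2 change 0.86, SE 0.40, adjusted p 0.148). Its groups overlapped, since day 5 well 3 lay below day 3 well 1. In bulk RNA, fewer cells of a type and less RNA per cell cannot be told apart.

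The DNA just upstream of 3 genes that fell is shown because TCF/LEF factors are known to bind sites with the letters CTTTGA. The 3 were chosen among genes that held a match. Each line gives the 250 bases before the start site, from RefSeq on GRCh38.p14, plus strand, with CTTTGA or its reverse complement TCAAAG in capitals. The windows are SP5 at chr2:170715087-170715336, DKK1 at chr10:52314031-52314280 and MIXL1 at chr1:226223414-226223663.
SP5: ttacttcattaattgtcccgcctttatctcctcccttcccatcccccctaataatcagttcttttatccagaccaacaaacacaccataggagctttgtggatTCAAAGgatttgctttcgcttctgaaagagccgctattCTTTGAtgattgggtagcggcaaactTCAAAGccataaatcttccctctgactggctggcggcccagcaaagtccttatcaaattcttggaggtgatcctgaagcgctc
DKK1: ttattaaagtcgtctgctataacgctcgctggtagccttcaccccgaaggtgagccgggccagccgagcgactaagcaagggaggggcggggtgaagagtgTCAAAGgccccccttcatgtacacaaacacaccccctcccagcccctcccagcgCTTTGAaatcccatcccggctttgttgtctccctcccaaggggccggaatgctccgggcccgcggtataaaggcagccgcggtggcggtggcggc
MIXL1: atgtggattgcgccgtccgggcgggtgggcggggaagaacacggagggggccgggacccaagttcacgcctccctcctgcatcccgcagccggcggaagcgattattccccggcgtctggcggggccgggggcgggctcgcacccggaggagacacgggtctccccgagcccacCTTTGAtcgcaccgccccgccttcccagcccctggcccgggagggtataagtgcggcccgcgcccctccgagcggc
SP5 had 3 matches, whose first bases lay -147, -109 and -83 from the start site. DKK1 had 2, at -149 and -95, and MIXL1 had 1, at -76. Of all 35116 promoters in the table, 11.2% held at least 1 match in a window of this length. Among Wnt feedback genes, 3 of the 10 with an entry held one (DKK1, SP5 and SP8), in 3 of their 13 promoters. Among streak factors it was 4 of 7 (CDX2, CDX4, MIXL1 and TBXT), in 4 of 8 promoters. APCDD1, TCF7, EOMES, EVX1 and GSC were called lower and held none. A match describes letters only, and SP8 held one without being called.

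Wnt feedback genes, which β-catenin induces and many of which damp the pathway, fell as a group: 9 of 16 tested were called lower and 0 higher, with a median log2 change of -1.19. NKD1, an intracellular brake on Dishevelled, stood at 104, 85.6 and 72.6 CPM in the day 3 wells and 15.5, 13.1, 11.5, 13.2 and 13.6 CPM in the day 5 wells (log2 change -2.70, SE 0.32, adjusted p 6.4e-08). AXIN2, a scaffold of the complex that destroys β-catenin, stood at 53.0, 58.5 and 48.3 CPM at day 3 and 15.4, 17.3, 18.5, 15.3 and 17.0 CPM at day 5 (log2 change -1.67, SE 0.18, adjusted p 7.55e-09). All day 5 wells were below all day 3 wells for both, and the 5 day 5 wells lay close together. DKK1, a secreted blocker of the LRP co-receptors, stood at 26.6, 28.9 and 31.2 CPM at day 3 and 4.41, 3.07, 3.00, 3.48 and 4.09 CPM at day 5 (log2 change -2.996, SE 0.36, adjusted p 1.03e-07). NOTUM, an extracellular enzyme that strips the lipid from Wnt proteins, fell from 14.4 to 2.30 CPM on average (log2 change -2.64). APCDD1, a membrane inhibitor of Wnt, fell from 13.5 to 3.90 CPM (log2 change -1.79). DKK4, a relative of DKK1, was at or under the floor of 3 counts per library in all day 5 wells and was at least 5.30-fold lower.

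TCF7, a DNA-binding partner of β-catenin, fell to 5.46, 8.30, 7.45, 6.35 and 6.10 CPM from 16.0, 16.6 and 12.1 CPM (log2 change -1.15, adjusted p 0.000287). It overlaps SKP1, whose level was many times higher, and its call did not pass on TPM. LGR5, a receptor for R-spondins, stood at 112, 73.9 and 73.4 CPM at day 3 and 28.8, 30.5, 35.8, 54.6 and 34.4 CPM at day 5 (log2 change -1.23, adjusted p 0.0202). Well 4 was the highest of the day 5 wells, and the call was lost without day 3 well 1 (log2 change -0.99, adjusted p 0.146) and at the threshold without day 5 well 1 (adjusted p 0.05). The 7 members not called were LEF1, ZNRF3, RNF43, TNFRSF19, BAMBI, NKD2 and SP8. LEF1, the other TCF/LEF factor of the list, averaged 79.6 ± 12.9 (SD, n = 3) and 49.7 ± 12.5 (SD, n = 5) CPM on the 2 days (adjusted p 0.0965). RNF43 and ZNRF3, paired ubiquitin ligases that remove Frizzled receptors, had log2 changes of 0.42 and -0.29. Median log2 changes over such a list sit beside -0.02 for all genes, and its members had been chosen with earlier results of these data known.

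**Figure D2:**
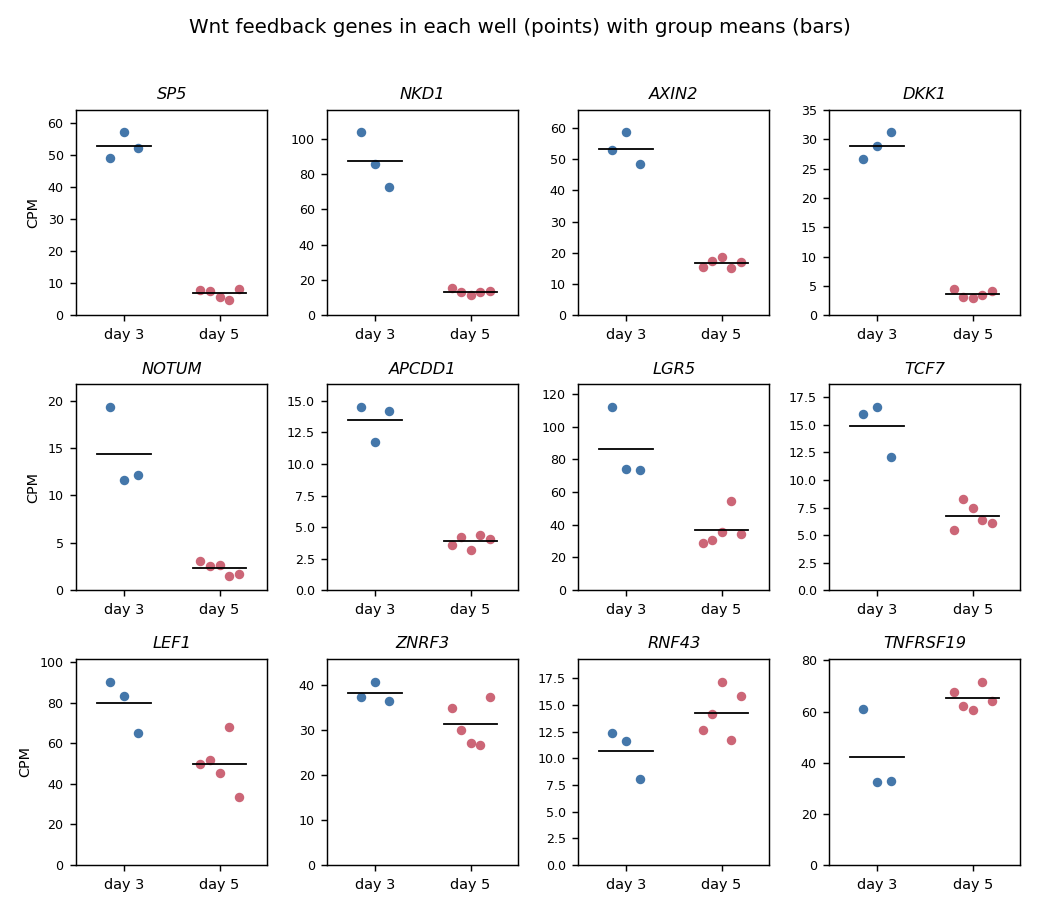
CPM of 12 Wnt feedback genes in each well (points; day 3, n = 3; day 5, n = 5), with group means as bars; each panel has its own vertical axis from 0. In the first 8 panels all day 5 wells lie below all day 3 wells, and in LEF1, ZNRF3, RNF43 and TNFRSF19 the groups overlap.

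Wnt ligands fell more often than they rose. Of 20 tested members of the list of ligands and the genes that make them secretable, 6 were called lower and 2 higher, and WNT1 was too low to test. The median log2 change was -0.91, and -0.58 or -0.49 without day 3 well 1 or 3, each over 21 tested. WNT8A, a ligand of the streak and early mesoderm, fell furthest, and stood at 67.3, 78.1 and 79.5 CPM in the day 3 wells and 0.697, 0.998, 0.514, 1.09 and 0.818 CPM in the day 5 wells (log2 change -6.50, SE 0.47, adjusted p 2.74e-12). WNT3, whose loss prevents streak formation in mouse, stood at 39.7, 52.6 and 49.0 CPM at day 3 and 10.2, 12.1, 11.3, 12.5 and 12.1 CPM at day 5 (log2 change -2.02, SE 0.24, adjusted p 6.54e-08). WNT5A, a ligand best known for signals that do not use β-catenin, stood at 197, 217 and 200.1 CPM at day 3 and 79.4, 64.7, 69.6, 80.7 and 72.5 CPM at day 5 (log2 change -1.48, SE 0.23, adjusted p 8.57e-06). Groups did not overlap for any of these 3 genes. WNT3A, WNT4 and WNT8B also fell, with log2 changes of -2.27, -3.08 and -2.96. WNT11, a non-canonical ligand of heart development, rose from 4.21 to 14.4 CPM (log2 change 1.77, adjusted p 0.000218). WNT2, a ligand of heart and lung mesoderm, was at or under 3 counts in all day 3 wells and at least 11.4-fold higher at day 5. Neither rise was called on TPM, where WNT2 was too low to test. PORCN, the target of IWP2, had a log2 change of 0.24, and WLS, which carries lipid-bearing Wnts to the surface, one of -0.73 (adjusted p 0.00733, under 2-fold and so not called).

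Among 15 Wnt receptors and co-receptors, 2 rose and 2 fell (median log2 change -0.21, and -0.11 without day 3 well 1). FZD8 rose from 15.7 to 70.7 CPM (log2 change 2.17, adjusted p 7.66e-06) and FZD4 from 66.7 to 203 CPM (log2 change 1.61, adjusted p 4.13e-05). FZD10 fell from 3.68 to 0.925 CPM (log2 change -1.99, adjusted p 0.0086), a call lost without day 3 well 1 (adjusted p 0.0631). ROR2, a receptor for WNT5A, fell from 189 to 91.3 CPM (log2 change -1.05, adjusted p 0.000951). Its change slipped just under 2-fold without day 3 well 3 (log2 change -0.99). The secreted antagonists divided as well, with 1 of 11 higher and 3 lower (median -0.47, and -0.28 or -0.26 without day 3 well 2 or day 5 well 4). SFRP5, which binds Wnt ligands and marks early heart-forming cells in mouse, stood at 28.2, 37.8 and 24.6 CPM at day 3 and 303, 252, 117, 263 and 310.3 CPM at day 5 (log2 change 3.04, SE 0.43, adjusted p 1.5e-06). Day 5 well 3 was the lowest of its group but still above every day 3 well. SFRP2 fell from 28.6 to 3.45 CPM and DKK3 from 40.1 to 16.2 CPM, beside CER1. None of the 13 intracellular core genes, from CTNNB1 and APC to GSK3B and the DVL genes, was called (median -0.17). Their log2 changes ran from -0.57 to 0.35, and GSK3A alone among them had an adjusted p under 0.05 (0.0352).

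The transcription factors of the primitive streak were nearly all lower at day 5: 9 of 10 were called, and the median log2 change was -4.00. TBXT (Brachyury), the classical mesoderm determinant, stood at 21.1, 20.1 and 17.1 CPM in the day 3 wells and 0.271, 0.479, 0.343, 0.0435 and 0.149 CPM in the day 5 wells (log2 change -6.21, SE 0.54, adjusted p 1.32e-10). EOMES, which specifies both mesoderm and endoderm, stood at 59.7, 97.7 and 148 CPM at day 3 and 2.52, 1.56, 1.76, 2.30 and 1.49 CPM at day 5 (log2 change -5.72, SE 0.49, adjusted p 5.4e-11). MIXL1, a homeobox factor of the streak, stood at 26.0, 40.2 and 40.9 CPM at day 3 and 1.12, 1.44, 0.685, 1.17 and 0.893 CPM at day 5 (log2 change -5.06, SE 0.48, adjusted p 4.57e-10). In these 3 genes the highest day 5 well was below the lowest day 3 well by a wide margin, and EOMES and MIXL1 were lowest in day 3 well 1. LHX1, EVX1 and CDX1 fell with log2 changes of -4.25, -2.88 and -3.76. CDX4 was at or under 3 counts in all day 5 wells and at least 4.80-fold lower. Each call was refitted 8 times, leaving out 1 well in turn. GSC lost its call without day 3 well 1, 2 or 3 or day 5 well 2, 3, 4 or 5 (adjusted p up to 0.151) and on TPM, and CDX2 lost it without day 3 well 1 or 2 or day 5 well 1, 4 or 5 (adjusted p up to 0.226). FOXH1, the DNA-binding partner of Nodal's SMAD proteins, was not called (log2 change -0.08).

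Within the Nodal pathway, 1 of 14 genes rose and 2 fell (median log2 change -0.07, and -0.18 without day 3 well 2). LEFTY2, a secreted Nodal inhibitor and itself a Nodal target, stood at 4.89, 19.4 and 28.6 CPM at day 3 and 0.232, 0.279, 0.385, 0.0435 and 0.112 CPM at day 5 (log2 change -6.36, SE 0.52, adjusted p 1.85e-11). TDGF1 (Cripto), the Nodal co-receptor, stood at 79.4, 111 and 195 CPM at day 3 and 12.3, 4.15, 4.41, 14.4 and 16.4 CPM at day 5 (log2 change -3.63, SE 0.51, adjusted p 1.62e-06). Both were lowest in day 3 well 1 among the day 3 wells and lower again in all day 5 wells. NODAL itself was low on both days, at 5.40 ± 4.72 CPM at day 3 (SD, n = 3) and 5.82 ± 0.686 CPM at day 5 (SD, n = 5), and the receptors and SMAD genes of the list were not called.

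Genes of early cardiac mesoderm divided, with 7 of 17 tested lower and 2 higher. The median log2 change was -0.68, and -0.34 over 18 tested without day 3 well 2. The summed level of this list was 2663 to 2980 CPM at day 3 and 2751 to 4048 CPM at day 5. MESP1, the first marker of heart-fated mesoderm, stood at 16.4, 29.04 and 26.1 CPM in the day 3 wells and 1.43, 2.20, 0.814, 0.870 and 1.19 CPM in the day 5 wells (log2 change -4.19, SE 0.51, adjusted p 1.08e-07). Its neighbour MESP2, which acts in somite formation, stood at 15.7, 41.1 and 41.1 CPM at day 3 and 0.581, 1.24, 0.514, 0.956 and 0.855 CPM at day 5 (log2 change -5.29, SE 0.56, adjusted p 5.95e-09). APLNR, the apelin receptor of migrating mesoderm, stood at 616, 938 and 885 CPM at day 3 and 231, 190.3, 147, 253 and 275 CPM at day 5 (log2 change -1.89, SE 0.33, adjusted p 6.55e-05). Day 3 exceeded day 5 in every well for all 3. PDGFRB, FOXC1, CXCR4 and BMP4 made up the other falls, with log2 changes of -1.71, -2.21, -2.04 and -1.03. CXCR4 lost its call without day 3 well 2 or 3 or day 5 well 2, 3 or 4 (adjusted p up to 0.124), and BMP4 without day 3 well 1 or 2 or day 5 well 4 or 5 (adjusted p up to 0.0558). LGR4, a receptor for R-spondins, rose from 306 to 833 CPM (log2 change 1.45, adjusted p 8.39e-08), but was not called on log2(TPM + 0.1) (adjusted p 0.0539). APELA, a ligand of APLNR, was the other rise, at 45.1, 13.6 and 12.4 CPM at day 3 and 116, 61.9, 65.6, 69.0 and 118 CPM at day 5 (log2 change 1.86, adjusted p 0.0167), and lost its call without day 3 well 2 or 3 (adjusted p up to 0.13). KDR, HAND1 and FOXF1 were not called, with log2 changes of 0.59, -0.21 and 1.08.

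Presomitic and paraxial mesoderm genes, which pattern the future somites, showed 5 falls and 0 rises among 14 tested (median log2 change -0.56, and -0.35 without day 3 well 2). TBX6, which directs cells to a paraxial fate, stood at 21.7, 45.1 and 32.9 CPM at day 3 and 3.25, 3.43, 1.63, 1.87 and 2.08 CPM at day 5 (log2 change -3.76, SE 0.39, adjusted p 4.32e-09). DLL3, a Notch ligand of the segmentation clock, stood at 58.4, 100.2 and 77.6 CPM at day 3 and 13.4, 12.5, 7.49, 6.83 and 12.3 CPM at day 5 (log2 change -2.91, SE 0.37, adjusted p 1.96e-07). MSGN1, a master factor of presomitic mesoderm, was at or under 3 counts in every day 5 well and at least 8.38-fold lower (DESeq2's adjusted p was 0.0801). RIPPLY2 and TCF15 also fell, the latter not without day 3 well 2 (adjusted p 0.08). In intermediate mesoderm, the source of kidney, 2 of 7 genes fell and 1 rose (median -1.45). SALL1 and EYA1 fell, to 131, 95.7, 72.5, 123 and 127 CPM and 2.05, 2.24, 2.40, 1.91 and 2.86 CPM. WT1, which marks both intermediate mesoderm and the epicardium, rose from 0.0397, 0.186 and 0.0755 CPM to 2.87, 11.8, 16.8, 2.13 and 2.53 CPM (log2 change 6.08, adjusted p 0.000147). Its rise was uneven, with wells 2 and 3 several times above the other 3, and the call was lost on TPM.

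Heart progenitor transcription factors rose: 11 of 21 were called higher and 1 lower (FOXC1), with a median log2 change of 1.47. MEF2C, an activator of muscle genes in the second heart field, stood at 1.19, 0.745 and 1.06 CPM in the day 3 wells and 61.8, 43.8, 21.7, 56.3 and 66.02 CPM in the day 5 wells (log2 change 5.64, SE 0.47, adjusted p 2.34e-11). TBX5, the T-box factor of the first heart field, stood at 1.75, 0.968 and 0.302 CPM at day 3 and 65.9, 59.4, 14.3, 40.5 and 38.5 CPM at day 5 (log2 change 5.44, SE 0.55, adjusted p 1.89e-09). SMYD1, a muscle-specific histone methyltransferase, stood at 1.07, 1.38 and 1.21 CPM at day 3 and 59.9, 50.3, 20.5, 45.0 and 74.4 CPM at day 5 (log2 change 5.35, SE 0.48, adjusted p 1.4e-10). These 3 were at or near 1 CPM at day 3 and lowest in well 3 at day 5. NKX2-5, the homeobox factor of committed heart progenitors, stood at 0.914, 0.335 and 0.491 CPM at day 3 and 9.60, 11.2, 5.05, 3.74 and 14.8 CPM at day 5 (log2 change 3.94, SE 0.53, adjusted p 6.51e-07). HAND2, which builds the right ventricle, rose from 10.6 to 109 CPM (log2 change 3.36, adjusted p 4.36e-08). TBX2 and TBX20, both T-box factors of the heart tube, rose with log2 changes of 4.21 and 2.48.

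Among the GATA factors of heart and endoderm, GATA4 rose from 58.2 to 161 CPM and GATA5 from 17.2 to 60.6 CPM (log2 change 1.82, adjusted p 4.07e-05). GATA6 averaged 86.1 and 171 CPM, a log2 change of 0.99 just under the limit of 1 (adjusted p 0.00728). NR2F2, an atrial factor, also rose, from 0.499 to 3.90 CPM (log2 change 2.96, adjusted p 0.000993). MYOCD, a co-activator of muscle genes, was called higher, but its groups overlapped and the call was lost without day 3 well 2 or 3 (log2 change 0.85 without well 3, adjusted p 0.0926) and on TPM. ISL1, which marks second heart field progenitors, did not change by the test, at 25.2 ± 0.587 CPM at day 3 (SD, n = 3) and 24.5 ± 8.64 CPM at day 5 (SD, n = 5).

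Contractile genes rose in part. Of 20 sarcomere genes, 9 were called higher, 1 lower and 10 neither, and their summed level was 644 to 707 CPM at day 3 and 2657 to 4068 CPM at day 5. The median log2 change was 0.63, and 0.41, 1.10 and 1.14 without day 3 well 1, 2 or 3. TNNT2, cardiac troponin T, stood at 2.98, 5.92 and 6.04 CPM in the day 3 wells and 105, 99.2, 62.3, 44.9 and 105 CPM in the day 5 wells (log2 change 4.06, SE 0.33, adjusted p 1.78e-11). MYL7, the atrial regulatory light chain, stood at 22.7, 12.8 and 9.92 CPM at day 3 and 203, 189.5, 147, 185 and 211 CPM at day 5 (log2 change 3.63, SE 0.54, adjusted p 4.88e-06). MYH6, the atrial myosin heavy chain, stood at 21.4, 15.4 and 22.7 CPM at day 3 and 179, 164, 54.6, 63.8 and 285 CPM at day 5 (log2 change 2.91, SE 0.46, adjusted p 1.19e-05). All day 5 wells were above all day 3 wells, and wells 3 and 4 were the lowest day 5 wells for TNNT2 and MYH6. TTN, the giant elastic filament, stood at 170.3, 249 and 226 CPM at day 3 and 1500, 1259, 916, 834 and 1308 CPM at day 5 (log2 change 2.43, adjusted p 0.000853). TPM1 (tropomyosin) stood at 203, 136 and 137 CPM at day 3 and 1144, 1043, 1035, 1050 and 1260 CPM at day 5 (log2 change 2.80, adjusted p 1.79e-09). With VIM, COL3A1 and COL1A1 these 2 were the largest risers in CPM among called protein-coding genes outside the mitochondrial and ribosomal sets. ACTC1, TNNI1, MYL4 and ACTN2 rose with log2 changes of 3.53, 3.10, 2.11 and 2.20, ACTN2 not on TPM.

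TNNC1, troponin C, went the other way (log2 change -1.21, adjusted p 0.018), a call lost without day 3 well 1 or 3 or day 5 well 3 (adjusted p up to 0.115). Genes of the mature sarcomere were low and not called, such as MYBPC3 at 1.82 ± 0.582 CPM at day 3 (SD, n = 3) and 2.15 ± 0.622 CPM at day 5 (SD, n = 5) and MYL3 at 3.54 ± 1.37 CPM at day 3 (SD, n = 3) and 3.14 ± 0.493 CPM at day 5 (SD, n = 5). MYH7, the ventricular heavy chain, stood at 1.19, 12.0 and 6.11 CPM at day 3 and 1.36, 9.42, 6.47, 19.7 and 7.10 CPM at day 5 and is nearly identical to MYH6 over much of its length, so reads may be split between them. In all 8 wells MYH7 stayed under 1% of the mean of the other libraries of the same lane, which include cultures of later days. Across the 10 largest risers, day 3 levels were 0.423 to 4.45% of that lane mean. The part of lane carry-over in these low levels was not tested.

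A set of endoderm and liver genes rose beside the heart genes. Among 22 genes for proteins secreted by liver and yolk sac, 11 were called higher and 0 lower, and the median log2 change was 3.35. MTTP, which loads lipid onto apolipoprotein B, stood at 1.39, 0.894 and 0.868 CPM in the day 3 wells and 118, 144, 179.5, 120.2 and 156 CPM in the day 5 wells (log2 change 7.09, SE 0.84, adjusted p 5.15e-08). APOB, the protein core of those lipid particles, stood at 2.78, 3.02 and 2.45 CPM at day 3 and 68.0, 114, 395, 79.3 and 108 CPM at day 5 (log2 change 5.79, SE 1.09, adjusted p 0.000152). APOA1, the main protein of high-density lipoprotein, stood at 12.6, 4.77 and 4.23 CPM at day 3 and 189, 278, 517, 108 and 185 CPM at day 5 (log2 change 5.15, SE 1.18, adjusted p 0.00163). The groups did not overlap in any of the 3, and APOB and APOA1 were highest in day 5 well 3. FGB, a fibrinogen chain, stood at 1.87, 1.38 and 1.40 CPM at day 3 and 50.4, 98.6, 265, 76.5 and 83.4 CPM at day 5 (log2 change 6.21, adjusted p 0.000338). F2 (prothrombin), VTN (vitronectin) and APOA2 rose with log2 changes of 4.71, 5.66 and 5.23. APOM overlaps BAG6, a gene with a far higher level, on the opposite strand, so its rise from 1.01 to 11.0 CPM is uncertain. AMBP and FGA complete the 11, though neither was called on TPM. AMBP lost its call without day 3 well 2 or 3 (adjusted p up to 0.0666) and FGA without day 3 well 1, 2 or 3 (adjusted p up to 0.0761).

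The summed level of the secreted list was 310.4 to 326 CPM at day 3 and 839 to 2452 CPM at day 5, and well 3 gave the highest value. The other 11 members were not called, ALB, AFP and APOH among them. ALB (albumin) stood at 0.127 ± 0.121 CPM at day 3 (SD, n = 3) and 0.519 ± 0.388 CPM at day 5 (SD, n = 5). AFP (alpha-fetoprotein) stood at 6.44, 4.28 and 4.68 CPM at day 3 and 8.52, 17.1, 57.1, 1.96 and 9.30 CPM at day 5 and was not called (adjusted p 0.361), with well 3 again the highest. APOH was listed at 0 in all 8 wells. Among 14 endoderm transcription factors, 6 were called higher and 2 lower (median log2 change 0.89), and without day 3 well 3 only 3 were called higher. HHEX, an early liver and foregut factor, rose from 5.72 to 34.4 CPM (log2 change 2.59, adjusted p 0.00256). FOXA1, a pioneer factor of gut and liver, rose from 12.8 to 44.9 CPM (log2 change 1.81, adjusted p 0.00318). HNF4A, which directs liver genes, stood at 7.99, 7.97 and 11.0 CPM at day 3 and 40.1, 48.3, 107, 33.1 and 43.4 CPM at day 5 (log2 change 2.60, adjusted p 0.0166), and its call was lost without day 3 well 1, 2 or 3 or day 5 well 3 (adjusted p up to 0.079). SOX17, the definitive endoderm factor, moved the other way at 62.7, 70.9 and 86.6 CPM at day 3 and 8.09, 5.19, 6.81, 7.04 and 12.5 CPM at day 5 (log2 change -3.21, SE 0.41, adjusted p 2.09e-07). FOXA2 was not called, at 32.8 ± 6.28 CPM at day 3 (SD, n = 3) and 26.7 ± 6.45 CPM at day 5 (SD, n = 5). On TPM, 3 of 11 endoderm factors were called higher (HHEX, FOXA1 and HNF4A), SOX7 lost its call, and ONECUT1 was too low to test.

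Endothelial and blood-forming genes rose, with 8 of 14 called higher, 1 lower, a median log2 change of 2.08 and a summed level of 80.0 to 104 CPM at day 3 and 157 to 304 CPM at day 5. TAL1, a master factor of blood and endothelium, stood at 0.437, 0.0745 and 0.264 CPM in the day 3 wells and 31.6, 37.9, 31.6, 19.7 and 30.7 CPM in the day 5 wells (log2 change 6.86, SE 0.59, adjusted p 5.19e-11). CDH5 (VE-cadherin), which joins endothelial cells, stood at 1.11, 1.01 and 0.604 CPM at day 3 and 9.99, 19.7, 27.9, 2.83 and 6.51 CPM at day 5 (log2 change 3.88, SE 0.59, adjusted p 6.76e-06). TEK, the angiopoietin receptor, stood at 16.6, 12.4 and 9.89 CPM at day 3 and 45.5, 66.02, 96.6, 31.8 and 37.6 CPM at day 5 (log2 change 2.10, adjusted p 0.00669), and its call was lost without day 3 well 3 (adjusted p 0.0567). TAL1 was even across the day 5 wells, whereas CDH5 and TEK were highest in well 3 and lowest in well 4. LMO2, a partner of TAL1, and ETV2, which starts the endothelial programme, rose with log2 changes of 2.87 and 2.05. ERG, ESAM and TIE1 were the other rises. PECAM1, a defining surface marker, was not called, at 1.69 ± 0.333 CPM at day 3 (SD, n = 3) and 4.28 ± 4.46 CPM at day 5 (SD, n = 5). On log2(TPM + 1), 4 of 9 members were called higher, without ERG, ESAM, ETV2 and TIE1, and on log2(TPM + 0.1) 7 of 9, without TIE1. RUNX1 was called lower, but not without day 3 well 1, 2 or 3 or day 5 well 1, 2, 4 or 5 (adjusted p up to 0.133).

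Smooth muscle, epicardial and fibroblast genes held 5 rises and 0 falls among 14 tested (median log2 change 0.73), and the largest rises in CPM were those of collagens. COL3A1, a fibrillar collagen of soft tissue, stood at 13.0, 12.9 and 12.9 CPM in the day 3 wells and 343, 833, 1995, 418 and 489.6 CPM in the day 5 wells (log2 change 5.98, SE 0.76, adjusted p 2.38e-07). COL1A1, the main collagen of connective tissue, stood at 91.1, 68.0 and 52.0 CPM at day 3 and 809.7, 842, 765, 540.4 and 686 CPM at day 5 (log2 change 3.37, SE 0.43, adjusted p 2.19e-07). LUM (lumican), which organises collagen fibrils, stood at 2.98, 1.34 and 1.06 CPM at day 3 and 41.4, 82.0, 273, 74.8 and 41.5 CPM at day 5 (log2 change 5.84, SE 1.06, adjusted p 1e-04). COL3A1 was nearly identical in the 3 day 3 wells and spread widely at day 5, with well 3 far above the others, while COL1A1 was even. TBX18, an epicardial factor, and ACTA2, smooth muscle actin, rose with log2 changes of 4.09 and 2.57, TBX18 not on TPM. TAGLN, CNN1 and TCF21 were not called. In the wider list of collagens, laminins and integrins, 4 of 26 rose and 3 fell (median 0.35). COL6A3 rose from 6.80 to 129 CPM and COL6A2 from 380.3 to 905 CPM, the latter not on TPM. ITGA6 and ITGA5, integrins that bind laminin and fibronectin, fell from 96.2 to 27.2 and 391 to 122 CPM. A list of epithelial and mesenchymal transition genes held 2 rises and 2 falls among 19 (median -0.20, and -0.10 without day 5 well 4), and 1 of each without day 3 well 2 or well 3. CLDN4, an epithelial tight junction protein, was called higher (log2 change 1.56), but not without day 3 well 1, 2 or 3 or day 5 well 3 (adjusted p up to 0.118) or on TPM. ESRP1, an epithelial splicing factor, was called lower (log2 change -1.04), but not without day 3 well 2 or 3 or day 5 well 2 or 4 (adjusted p up to 0.144). VIM, the intermediate filament of mesenchymal cells, stood at 1572, 875 and 717 CPM at day 3 and 4532, 4519, 3155, 3516 and 3611 CPM at day 5 (log2 change 1.87, adjusted p 9.99e-07). CDH11, a mesenchymal cadherin, fell to 75.8, 89.5, 97.1, 98.0 and 80.7 CPM from 568, 502 and 480.4 CPM (log2 change -2.55, adjusted p 1.07e-05). Neither gene's groups overlapped.

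The day 5 wells differed from each other along lines that recurred across genes. Well 3 held the highest COL3A1, LUM, FGB, APOB, VTN, IGF2 and WT1 of the 5 and the lowest TBX5, MEF2C, HAND2 and UNC45B. Well 4 lay opposite it on the second principal component, which carried 10.3% of the variance, and had the lowest CDH5, TNNT2 and H19. SP5, NKD1 and AXIN2 each spanned less than 2-fold over the 5 wells. Well 4 also had the lowest RNA integrity score, 8.4 against 9.8 to 10 elsewhere, and the lowest depth. The part of these in its levels was not tested.

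**Figure D3:**
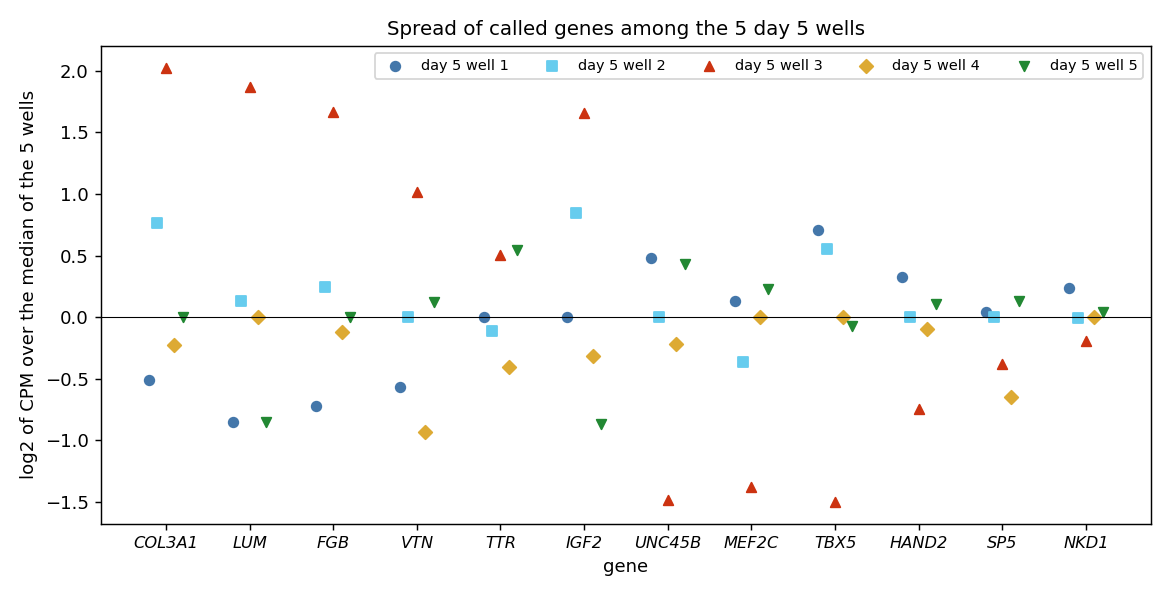
Log2 of CPM over the median of the 5 day 5 wells (vertical axis) for 12 called genes (horizontal axis), with a marker for each well. Well 3 (red triangles) is highest for COL3A1, LUM, FGB, VTN and IGF2 and lowest for UNC45B, MEF2C, TBX5 and HAND2; SP5 and NKD1 spread little.

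Pluripotency genes were lower at day 5, with 7 of 14 called lower and 0 higher (median log2 change -1.04). POU5F1 (OCT4), a core factor of the pluripotent state, stood at 305, 321 and 367 CPM in the day 3 wells and 43.4, 43.6, 36.5, 25.7 and 30.8 CPM in the day 5 wells (log2 change -3.20, SE 0.50, adjusted p 9.09e-06). NANOG, its partner, stood at 6.95, 7.97 and 12.1 CPM at day 3 and 0.697, 0.519, 0.557, 0.435 and 0.670 CPM at day 5 (log2 change -3.95, SE 0.37, adjusted p 4.29e-10). Every day 5 well was below every day 3 well for both. DNMT3B, a de novo DNA methyltransferase, and DPPA4 fell from 378 to 174 and 169.6 to 73.7 CPM. SALL4 and L1TD1 fell near the 2-fold limit. SALL4 was under it without day 3 well 2 (log2 change -0.99), and L1TD1 lost its call without day 3 well 1 or 3 or day 5 well 2 (adjusted p up to 0.156). SOX2 stood at 9.49 ± 3.32 CPM at day 3 (SD, n = 3) and 2.89 ± 1.63 CPM at day 5 (SD, n = 5), and was not called, and LIN28A, also not called, stood at 1700 ± 38.6 CPM at day 3 (SD, n = 3) and 1223 ± 89.1 CPM at day 5 (SD, n = 5). Of 12 neural and surface ectoderm genes, 3 were called lower and 0 higher (median -1.70, and -0.90 over 13 tested without day 3 well 3). Their summed level was 444 to 558 CPM at day 3 and 298 to 346 CPM at day 5. With only the 8 libraries fitted, 5 of 10 members tested were called lower and 1 higher. OTX2 and ZIC2, shared by streak-stage cells and neural plate, fell from 70.9 to 18.9 and 45.6 to 4.45 CPM. ZIC1 was also called lower, but not without day 3 well 1, 2 or 3 or day 5 well 1, 2 or 5 (adjusted p up to 0.0873). SOX1 and PAX6, the defining neural factors, were at or under 1.42 CPM in all 8 wells.

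Among FGF pathway genes, 8 of 23 were called lower and 2 higher, and 0 were called higher on TPM. The summed level of the list was 1355 to 1416 CPM at day 3 and 1325 to 1565 CPM at day 5. The median log2 change was -0.40, and -0.76 without day 5 well 5. FGF4 stood at 11.4, 12.0 and 10.2 CPM at day 3 and 0.194, 0.0798, 0.257, 0.0870 and 0.223 CPM at day 5 (log2 change -6.01, SE 0.64, adjusted p 6.89e-09) and FGF17 at 11.3, 17.2 and 24.8 CPM at day 3 and 0.465, 0.439, 0.385, 0.652 and 0.632 CPM at day 5 (log2 change -5.09, SE 0.57, adjusted p 2.06e-08). FGF8, the FGF needed for mesoderm to leave the streak, fell from 5.60 to 1.03 CPM (log2 change -2.43, adjusted p 0.00054). The ERK-responsive genes SPRY4, ETV5, ETV4 and SPRY2 fell beside them, with log2 changes of -2.50, -2.31, -2.02 and -1.11. ETV4 overlaps DHX8 on the opposite strand. DUSP6, another ERK feedback gene, was called higher from 114 to 278 CPM (log2 change 1.29, adjusted p 0.00283), with day 5 well 3 inside the day 3 range and the call lost on TPM. The FGF receptors were not called.

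Most BMP pathway genes were not called: 3 of 22 rose and 2 fell (median log2 change 0.02), and on TPM 1 of 20 rose and 4 fell. Without day 3 well 1, none fell. BMP5, a ligand of the heart-forming region, rose from 43.5 to 168 CPM (log2 change 1.95, adjusted p 7.63e-07) and SMAD6, a feedback inhibitor, from 90.1 to 236 CPM (log2 change 1.39, adjusted p 0.000888), SMAD6 not on TPM. BMP4 and MSX2 fell, MSX2 not without day 3 well 1 (adjusted p 0.0912), and ID1 and ID3, direct BMP targets, had log2 changes of 0.08 and 0.10. Most Notch genes were not called either, with 1 of 18 higher (DLL4, log2 change 2.48) and 2 lower (DLL3 and HEY2). Their median was -0.07, and -0.23 over 19 tested without day 3 well 1 or -0.21 without day 5 well 5. HEY2 was at the 2-fold limit, and its call was lost without day 3 well 2 or day 5 well 3 or 5 (log2 change -0.89).

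Genes handling retinoic acid, the vitamin A signal that patterns the heart tube, gave 3 rises and 5 falls among 16 (median log2 change -0.53). The rises numbered 1 without day 3 well 3, and on TPM 1 of 13 rose and 7 fell. CYP26A1, which degrades retinoic acid and marks the anterior streak, stood at 29.2, 52.2 and 93.2 CPM at day 3 and 3.56, 4.95, 5.48, 4.48 and 6.43 CPM at day 5 (log2 change -3.55, SE 0.55, adjusted p 9.16e-06). CRABP2, a carrier of retinoic acid, fell from 574 to 247 CPM (log2 change -1.22, adjusted p 0.000399). ALDH1A3 and CRABP1 fell with log2 changes of -2.65 and -1.51. ALDH1A2 averaged 7.03 and 2.42 CPM and was not called (log2 change -1.54, adjusted p 0.131), but was called lower on TPM and with only the 8 libraries. DHRS3, which returns retinaldehyde to retinol, rose from 6.30 to 18.8 CPM (log2 change 1.58, adjusted p 0.00166). ALDH1A1, which makes retinoic acid, stood at 0.238, 0.335 and 0.189 CPM at day 3 and 1.24, 1.52, 8.35, 0.391 and 0.670 CPM at day 5 (log2 change 3.22, adjusted p 0.0137). Well 3 was far above the other day 5 wells, and the call was lost without day 3 well 1 or 3 or day 5 well 3 (adjusted p up to 0.145). RDH10, which oxidises retinol, averaged 24.0 and 54.7 CPM (log2 change 1.19, adjusted p 0.00768). It overlaps RPL7, whose level was many times higher, and lost its call without day 3 well 2 or 3 or day 5 well 4 (adjusted p up to 0.0942) and on TPM.

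HOX genes, which set position along the body axis, included 8 rises and 0 falls among 28 tested (median log2 change 1.52), and another 11 were too low to test. HOXB4 stood at 5.40, 2.72 and 1.92 CPM at day 3 and 18.1, 30.6, 28.3, 32.3 and 17.5 CPM at day 5 (log2 change 2.92, SE 0.45, adjusted p 7.66e-06) and HOXB2 at 15.1, 9.01 and 7.89 CPM at day 3 and 32.5, 42.0, 30.1, 40.4 and 24.4 CPM at day 5 (log2 change 1.67, SE 0.31, adjusted p 0.000149). In both, day 3 well 1 was the highest of its group and still below all day 5 wells. HOXB5 rose from 0.480 to 3.24 CPM (log2 change 2.75, adjusted p 0.00374). HOXB1, HOXB3, HOXB6 and HOXB7 were also called, each call being lost in at least 2 of the 8 fits leaving out 1 well. HOXB1 lost its call without day 3 well 2 or 3 or day 5 well 1, 2 or 4 (adjusted p up to 0.182) and HOXB3 without day 3 well 2 or 3 (adjusted p up to 0.197). HOXB6 lost it without day 3 well 2 or 3 or day 5 well 2 or 3 (adjusted p up to 0.205) and HOXB7 without day 3 well 1, 2 or 3 or day 5 well 2, 3 or 4 (adjusted p up to 0.166). The count of 8 was 3 of 35 tested without day 3 well 2 (median 0.66) or well 3, where more members passed the filter on low counts. It was 5 without day 5 well 2 or 4, and 4 of 7 on TPM. HOXB genes overlap each other and their antisense genes, so their levels are uncertain. Among guidance and migration signals, 4 of 19 rose and 6 fell (median -0.50, and -0.09 without day 3 well 1), with 2 rises on TPM. ROBO2, a receptor for SLIT proteins, stood at 5.60, 4.84 and 4.00 CPM at day 3 and 78.6, 89.1, 110.2, 84.5 and 94.9 CPM at day 5 (log2 change 4.25, SE 0.29, adjusted p 2.18e-13). NTN1 (netrin) stood at 19.1, 33.2 and 37.0 CPM at day 3 and 0.387, 0.599, 0.899, 0.478 and 0.818 CPM at day 5 (log2 change -5.54, SE 0.46, adjusted p 2.34e-11), and both changes were alike in all wells of a day. SLIT2 fell while SLIT3 rose (log2 changes -1.48 and 1.43, SLIT3 not on TPM), and CXCL12 rose while its receptor CXCR4 fell (2.37 and -2.04).

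Glycolysis genes, which turn glucose into pyruvate and lactate, fell broadly: 11 of 18 were called lower and 0 higher, with a median log2 change of -1.12. Their summed level was 16560 to 19230 CPM at day 3 and 7977 to 10670 CPM at day 5. LDHA, which makes lactate, stood at 1192, 1357 and 1670 CPM in the day 3 wells and 456, 381, 245, 303 and 524 CPM in the day 5 wells (log2 change -1.88, SE 0.22, adjusted p 4.59e-08). PGK1, an ATP-yielding step, stood at 858, 1181 and 1300 CPM at day 3 and 361, 348, 247, 276 and 439 CPM at day 5 (log2 change -1.74, SE 0.24, adjusted p 8.03e-07). HK2, which phosphorylates glucose in the first step, stood at 179, 248 and 271 CPM at day 3 and 63.1, 52.7, 48.5, 39.1 and 78.9 CPM at day 5 (log2 change -2.04, SE 0.31, adjusted p 6.78e-06). The groups did not overlap, and day 3 well 1 was the lowest day 3 well in all 3. SLC2A1, a glucose transporter, fell from 421 to 126 CPM (log2 change -1.74, adjusted p 3.46e-05). ENO1, PKM and LDHA were among the 5 largest falls in CPM of called protein-coding genes outside the mitochondrial and ribosomal sets, with FBN2 and GJA1. PDK1, which keeps pyruvate out of mitochondria, fell from 304 to 128 CPM (log2 change -1.24, adjusted p 0.000761). GAPDH did not reach a 2-fold change (log2 change -0.82, adjusted p 0.0013), and SLC2A3, another glucose transporter, had a log2 change of 0.55. TPI1 was at the 2-fold limit, and just under it without day 5 well 3 or 4 (log2 change -0.99).

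LDHA and PGK1 are textbook targets of hypoxia-inducible factors, whose sites carry the letters ACGTG. Their upstream 250 bases are shown for that reason and because they held a match. They are from RefSeq on GRCh38.p14, plus strand, with ACGTG or CACGT in capitals. The windows are LDHA at chr11:18394313-18394562 and PGK1 at chrX:78103998-78104247.
LDHA: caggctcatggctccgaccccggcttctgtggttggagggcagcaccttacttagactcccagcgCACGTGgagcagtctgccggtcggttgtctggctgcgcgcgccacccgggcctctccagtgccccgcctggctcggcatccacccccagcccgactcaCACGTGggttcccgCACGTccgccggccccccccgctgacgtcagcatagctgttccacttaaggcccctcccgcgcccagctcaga
PGK1: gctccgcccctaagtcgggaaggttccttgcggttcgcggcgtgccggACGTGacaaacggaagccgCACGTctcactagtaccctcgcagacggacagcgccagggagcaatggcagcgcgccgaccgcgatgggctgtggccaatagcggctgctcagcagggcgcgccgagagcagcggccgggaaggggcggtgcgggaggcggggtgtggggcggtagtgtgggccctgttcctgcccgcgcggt
The table holds another LDHA promoter, which had no match. The LDHA window shown had 3 stretches of matches, with first bases -185, -87 and -73 from the start site, of which matches on both strands that overlap were counted as 1. PGK1 had 2, at -202 and -183. The letters occurred in 18.5% of all 35116 promoters. They occurred in at least 1 promoter of 12 of the 17 glycolysis genes with an entry, and in 15 of their 42 promoters. Of the 11 genes called lower, 7 held a match, so 5 genes with a match were not called.

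Cell cycle genes were lower in most wells but seldom called, with 3 of 27 lower, 2 higher and a median log2 change of -0.61. In 16 of the 27, all day 5 wells lay below all day 3 wells, and in 2 all lay above. Among all 22955 genes tested, the groups did not overlap in 7864, counting both directions. BUB1, a mitotic checkpoint kinase, fell from 173 to 64.6 CPM (log2 change -1.42, adjusted p 0.00998) and MYC from 25.02 to 8.51 CPM (log2 change -1.55, adjusted p 0.0182). MYC lost its call without day 3 well 1 (adjusted p 0.079) and CCNB1 without day 3 well 1, 2 or 3 or day 5 well 3 or 5 (adjusted p up to 0.144). MKI67 and TOP2A, proliferation markers, were not called (log2 changes -0.89 and -0.74). CDKN1C, a cell cycle inhibitor, rose from 13.8 to 79.4 CPM (log2 change 2.53, adjusted p 8.96e-05), and CCND2 rose from 249 to 515 CPM, a change under 2-fold without day 3 well 1 (log2 change 0.88) and on TPM. Without day 3 well 1, 1 cell cycle gene was called lower and 1 higher. On TPM, 6 of 25 cell cycle genes and 4 of 15 sterol genes were called lower. Cholesterol synthesis genes had 2 of 15 called lower, and every member had a negative log2 change (median -0.74). SQLE, an enzyme of the pathway, did not reach a 2-fold change, with a log2 change of -0.77 (adjusted p 0.000497).

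Imprinted growth genes had 4 rises and 0 falls among 14 (median log2 change -0.04). IGF2, a fetal growth factor, stood at 27.1, 22.4 and 17.7 CPM at day 3 and 339, 610.0, 1072, 272 and 185 CPM at day 5 (log2 change 4.47, SE 0.63, adjusted p 1.73e-06). H19, its neighbouring non-coding RNA, stood at 33.3, 26.0 and 19.3 CPM at day 3 and 228, 371, 442, 169.9 and 306 CPM at day 5 (log2 change 3.53, SE 0.56, adjusted p 1.14e-05). Both were highest in day 5 well 3, and all day 5 wells exceeded all day 3 wells. KCNQ1OT1, an antisense non-coding RNA of the CDKN1C locus, rose from 61.6 to 144 CPM, a change under 2-fold without day 5 well 3 (log2 change 0.99). DLK1, MEST and PEG10 were not called.

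**Figure D4:**
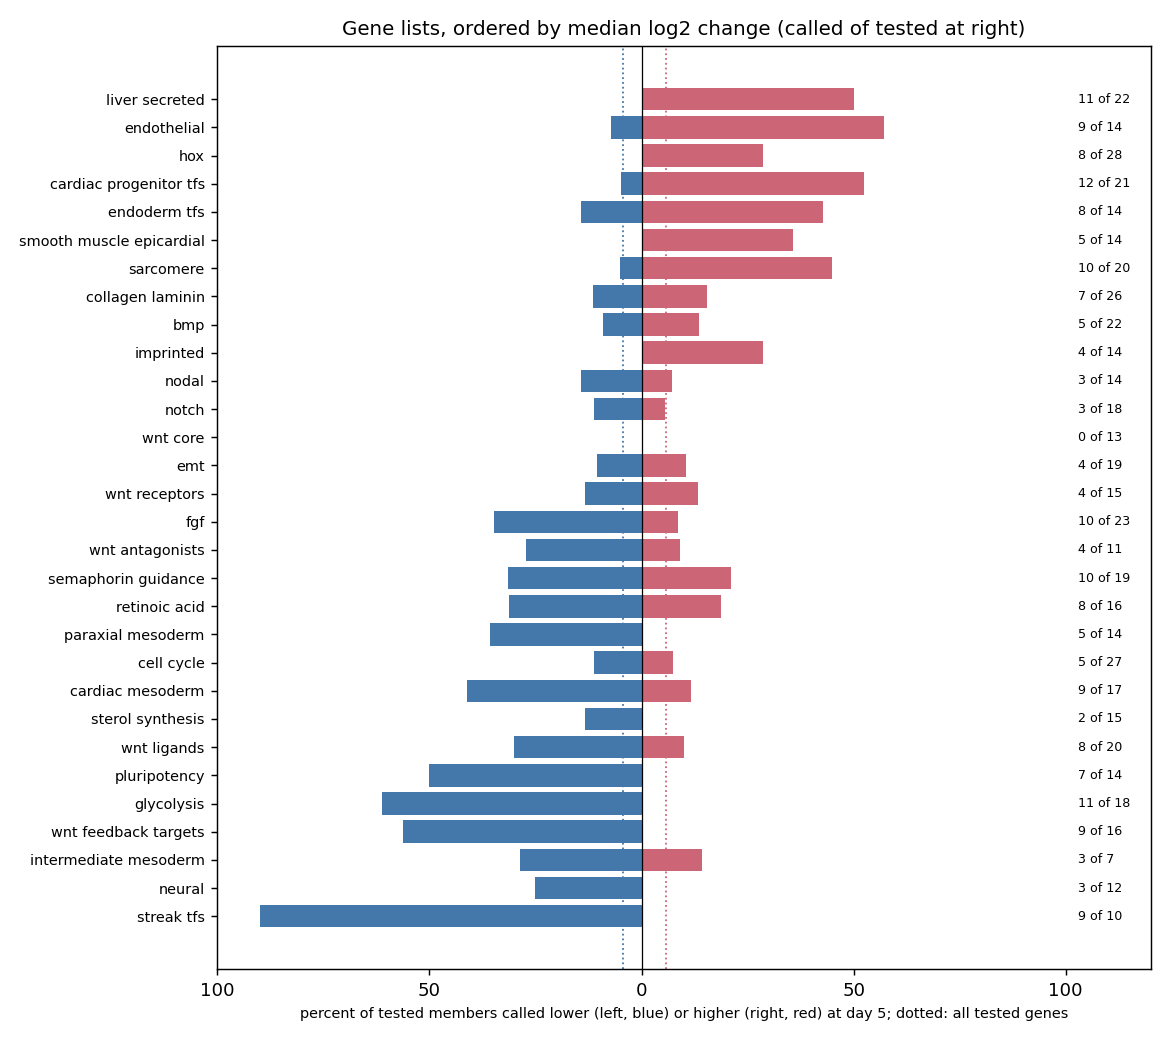
Percent of tested members of each of 30 gene lists called lower (left, blue) or higher (right, red) at day 5, ordered by median log2 change, with the number called of those tested at the right. Dotted lines mark the 4.34% and 5.75% of all genes called lower and higher; streak factors have the longest bar to the left.

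Several of the largest changes lay outside these lists. Among protein-coding genes averaging 10 TPM or more on the higher day, the 10 largest rises were TTR, MTTP, PLAT, FGB, COL3A1, LUM, UNC45B, VTN, SLC39A5 and MEF2C. PLAT, tissue plasminogen activator, stood at 1.95, 0.968 and 0.566 CPM at day 3 and 89.0, 119, 137, 191 and 101 CPM at day 5 (log2 change 6.78, SE 0.94, adjusted p 1.12e-06). UNC45B, a chaperone that folds muscle myosin, stood at 1.63, 1.49 and 1.62 CPM at day 3 and 116, 83.2, 29.7, 71.5 and 112 CPM at day 5 (log2 change 5.70, SE 0.50, adjusted p 6.95e-11). SLC39A5, a zinc transporter of gut, pancreas and liver, stood at 0.437, 0.596 and 0.491 CPM at day 3 and 22.6, 24.9, 33.2, 15.3 and 33.6 CPM at day 5 (log2 change 5.66, SE 0.75, adjusted p 5.86e-07) and overlaps ANKRD52 on the opposite strand. UNC45B was lowest in well 3, where PLAT and SLC39A5 were second highest.

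The largest falls by the same rule included CER1, WNT8A, NTS, CST1, EOMES, STMN2, MESP2, MIXL1 and NDUFA4L2. NTS (neurotensin), a gut and brain peptide, stood at 151, 129 and 122 CPM at day 3 and 2.21, 1.32, 1.80, 1.26 and 1.41 CPM at day 5 (log2 change -6.38, SE 0.43, adjusted p 2.18e-13). STMN2, a microtubule regulator, stood at 33.7, 51.8 and 67.1 CPM at day 3 and 1.05, 0.599, 0.385, 1.52 and 1.38 CPM at day 5 (log2 change -5.68, SE 0.37, adjusted p 1.09e-13). Neither gene's groups overlapped, and STMN2 was lowest in well 1 among the day 3 wells. CST1, a cystatin, fell from 14.8 to 0.204 CPM. NDUFA4L2, a hypoxia-induced mitochondrial protein, fell from 14.7 to 0.488 CPM and overlaps SHMT2, whose level was many times higher. In CPM, FBN2 (fibrillin 2) fell from 1696 to 459.5 and GJA1 (connexin 43) from 1752 to 708.

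Genes not annotated as protein-coding in GENCODE 29 made up 434 of the calls, with 185 genes of long non-coding types higher and 121 lower among them. PPIAP46, a pseudogene, stood at 22.1, 16.6 and 22.6 CPM at day 3 and 0.348, 0.120, 0.0856, 0.130 and 0.260 CPM at day 5 (log2 change -6.70, SE 0.64, adjusted p 5.85e-10), and lies across CYP11A1 on the opposite strand. GATA6-AS1, antisense to GATA6, stood at 22.8, 15.0 and 12.8 CPM at day 3 and 127, 98.5, 53.2, 115 and 133 CPM at day 5 (log2 change 2.64, SE 0.38, adjusted p 2.78e-06). Counting by strand is not stated, so it cannot be told apart from reads of its partner. The host gene SNHG4 fell from 9.53 to 2.13 CPM and FAR2P3 from 8.51 to 3.43 CPM. SNHG4 overlaps MATR3 on the same strand, which averaged 80.9 CPM at day 3 and 44.45 CPM at day 5, so its level is uncertain. The snoRNA genes SNORA50A, RF00092 and SNORA7B and the snRNA pseudogene RNU5A-8P were called at under 2 CPM in every well. SNORA50A lost its call without day 3 well 1 or 2 (adjusted p up to 0.0863), RF00092 without day 3 well 2 or 3 (adjusted p up to 0.0832), SNORA7B without day 3 well 1 or 3 (adjusted p up to 0.0761) and RNU5A-8P without day 3 well 1 or 3 or day 5 well 4 or 5 (adjusted p up to 0.129). HAND2, TBX5, EVX1, TNNT2, TTN and IGF2 also overlap genes that were counted separately, so part of their reads may belong to those.

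In the wider time course, the genes that fell differed in when their means were highest. MIXL1 averaged 313 ± 138 CPM at day 1 and SP5 263 ± 13.1 CPM (SD, n = 3), both above their day 3 means of 35.7 ± 8.41 and 52.9 ± 4.05 CPM. WNT8A and MESP1 were instead highest at day 3 among all groups from pluripotent cultures to day 9, WNT8A standing at 4.81 ± 0.972 CPM at day 1. After day 5, TBX5 averaged 49.9 ± 15.8 CPM at day 7 and 49.4 ± 15.4 CPM at day 9 (SD, n = 5 each). TTR averaged 195 ± 53.9 and 271 ± 141 CPM on those days. LDHA averaged 412 ± 119.8 and 712 ± 134 CPM. These later means are descriptions, with no test made here.

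**Figure D5:**
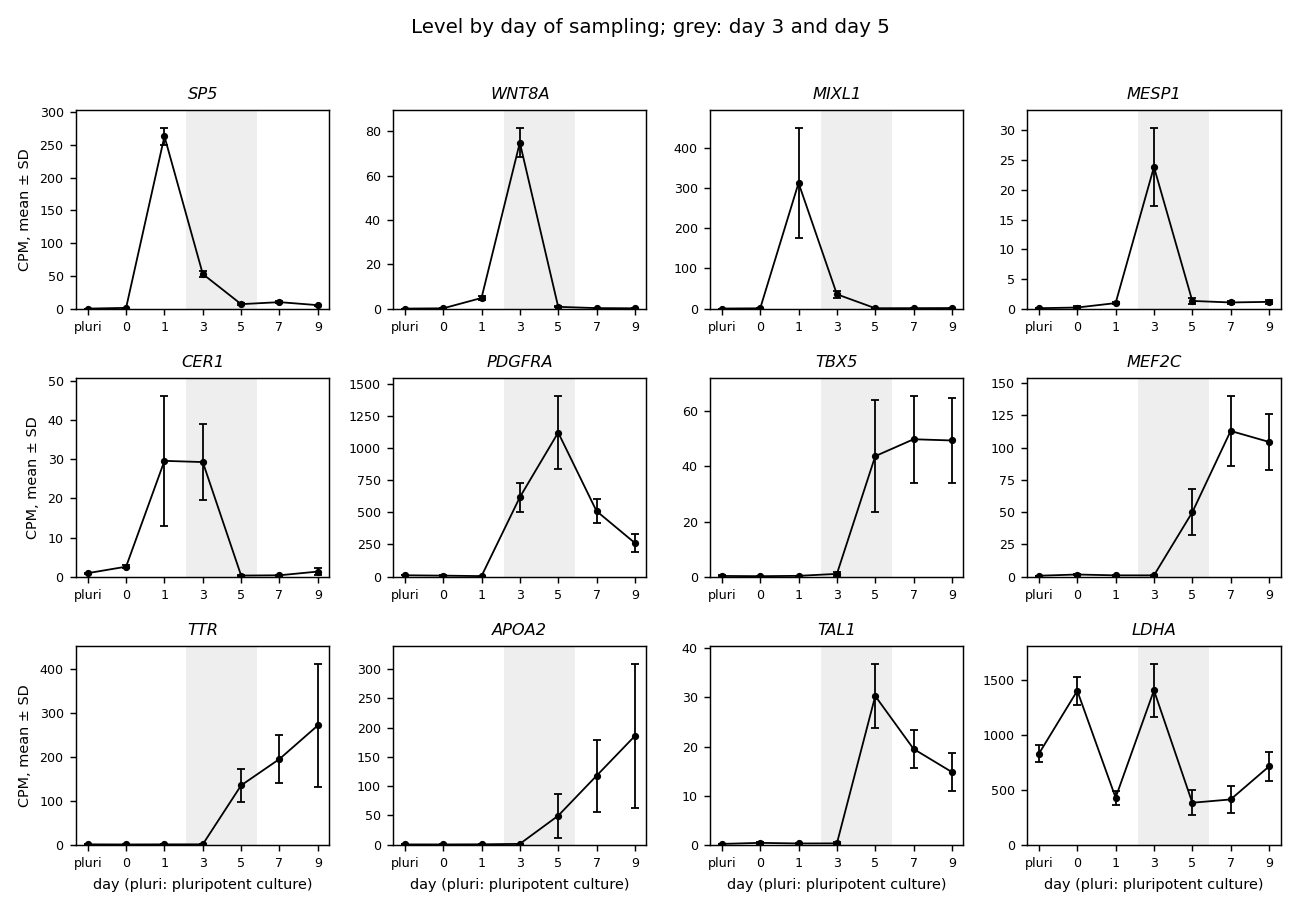
Mean CPM with SD (vertical axes, each from 0) of 12 genes in pluripotent cultures and at days 0 to 9 (horizontal axis; n = 3 up to day 3 and 5 from day 5), with day 3 and day 5 shaded. The highest means are at day 1 for MIXL1 and SP5, day 3 for WNT8A and day 5 for PDGFRA.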

How the data were processed

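Total RNA from each well was sequenced as stranded paired-end libraries. Per the submitters' processing notes, reads were handled with cutadapt, STAR 2.5.2b and RSEM 1.2.31 on hg38. The authors deposited RSEM estimated counts per gene and TPM values, and RNA integrity scores are as the authors deposited them. Whether counting used the strand is not given in the sources used here. Estimated counts (93.8% of values whole) were rounded. Symbols and gene types came from GENCODE 29.

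All 44 libraries were fitted with edgeR 4.0.16 in R 4.3.3 (filterByExpr, TMM, quasi-likelihood test, 1 mean per group), and the contrast was day 5 minus day 3. A gene was called at a Benjamini-Hochberg adjusted p under 0.05 with a log2 change of at least 1 in size. Every adjusted p printed is of this kind. CPM are TMM-scaled. Alternatives were RLE size factors, DESeq2 1.42.0, other filters on low counts, only the 8 libraries, limma 3.58.1 on log2(TPM + 1) or log2(TPM + 0.1), the replicate number as a block, and each well left out. Depth was 21139494 to 25787305 counts, so 3 counts, the floor used for lower bounds on folds, were 0.112 to 0.13 CPM. Floors cover counting error only.

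Named genes are members of 30 gene lists (515 symbols, 1 not found) and genes chosen by rank. The ranked genes are the 10 largest called rises and falls among protein-coding genes with mean TPM of at least 10 and no overlap, the 5 largest in CPM outside mitochondrial and ribosomal protein genes, and up to 5 non-coding ones each way. Some members are counted but not reported by name here. Members and lists were chosen with earlier results of these data known. The fit was also tested on simulated counts, with every count drawn independently, so patterns shared across genes within a well were not included. Changed genes were drawn from those averaging at least 1 CPM at day 3. The fit called 94% of 100 genes changed 4-fold and 96% of 100 changed 8-fold. It called 4 unchanged genes there, and 0 of 22955 when none was changed. Each simulated gene had 1 spread in all groups, as the fit assumes. In the real wells edgeR's coefficient was 14.1% at day 3 and 21.1% at day 5, so the false calls counted hold only for the simulated setting.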

Additional observations from a re-analysis of the deposited data

Results flagged for a closer look

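In 6 of 60 measures taken over the 5 day 5 wells, 1 well stood far from the other 4 by Dixon's test at 95%, which chance alone gives in about 1 of 20 groups. FGB was 265.2 CPM in well 3 and 50.4 to 98.6 CPM in the others. LUM was 272.7 CPM in well 3 and 41.4 to 82.0 CPM in the others. LGR5 was 54.56 CPM in well 4 and 28.8 to 35.8 CPM in the others, so its fall was smallest there. DKK4 was 0.07983 CPM in well 2 and 0 in the other 4, a level under the floor of 3 counts. The RNA integrity score was 8.4 in well 4 and 9.8 to 10 elsewhere. Well 5 had 17558 genes with at least 10 counts, against 17304 to 17362 in the others.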

How the results depend on the processing

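Other count-based fits called 1686 to 2764 genes, the fewest without day 3 well 3 and the most with only the 8 libraries, and in none was a called gene called in the other direction. Without day 5 well 3, 2043 genes were called, and without well 4, 2293. Limma on log2(TPM + 1) called 1164 genes of 14063 tested, 331 of them higher (28.4%), and on log2(TPM + 0.1) it called 1443, with 450 higher (31.2%). Of 1473 main calls tested there, 853 and 1055 were still called. TPM rescaled to protein-coding genes, chosen after seeing the data, gave 1392 calls, 874 higher and 518 lower, and kept 1226. Protein-coding genes held 37.1 to 41.9% of TPM at day 3 and 22.1 to 39.4% at day 5. Of 206 named genes called, 163 kept their call in all 8 fits leaving out 1 well. Deviations from the group mean correlated at -0.0355, 0.339 and -0.183 between day 3 and day 5 wells of the same number, for numbers 1 to 3. For unequal numbers the correlations ran from -0.358 to 0.118. Deviations around 1 group mean depend on each other, so these values cannot decide whether wells of a number shared a culture. With the replicate number as a block, 2258 genes were called, 2058 of them shared. Sequencing lane equals replicate number in all 8 wells, and lanes 4 and 5 held no day 3 well. In the fit of the 8 libraries alone 2764 genes were called without lane and 2761 with lane as a covariate. With that covariate, day 5 wells 4 and 5 add nothing to the contrast, so lane could be adjusted for in wells 1 to 3 only. Genes near 3 counts per library are limited by depth.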
